A study of Mus musculus with 12 samples.

Results

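Parp9, Parp10, Parp11, Parp12, Parp14 and Dtx3l are genes of the interferon response that make or assist enzymes of ADP-ribosylation. These 6 genes were chosen by name, with earlier results of these data known, and all 6 were found among the 24421 genes listed for each library. The libraries are RNA-seq of mouse bone marrow macrophages (BMMs), the primary precursors of osteoclasts. According to the methods, the LysMcre mice used in the crosses were on the C57BL/6 background. In the loss of function experiment, WT cells (Mir182+/+LysMcre(+)) were set against Mir182ΔM/ΔM cells (Mir182flox/floxLysMcre(+)), both without RANKL (basal) and after 5 days of RANKL, the cytokine that drives osteoclast formation. In the gain of function experiment, basal Control cells (LysMcre(+)) were set against basal Mir182mTg cells (LSL-Mir182LysMcre(+)), in which miR-182 is switched on from the Rosa26 locus. Mice of all 6 conditions carried LysMcre, a Cre under the lysozyme M promoter, which acts in myeloid cells at large, and the controls were littermates according to the methods. All cells had been grown from marrow with M-CSF for 3 days. Each condition had 2 replicates, 12 libraries in all, and neither the age of the mice nor any pooling of animals is given in the sources used here.

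ADP-ribosyltransferases of the PARP family move ADP-ribose from NAD to proteins, and most members add a single unit to each site. Type I interferons, such as IFN-β, bind the receptor made of Ifnar1 and Ifnar2, and the receptor's signaling then switches on interferon-stimulated genes at a DNA element called the ISRE. A subset of the PARP genes, among them the 5 described here, is induced this way in macrophages, and Dtx3l encodes the ubiquitin ligase that partners Parp9. Endogenous IFN-β is also known as a brake on osteoclast formation. No interferon is named as an addition to these cultures, so "interferon-induced" is background and not a treatment in these data.

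The reads counted on genes numbered from 24951280 to 33050619 per library, and 3 reads were worth 0.0908 to 0.120 CPM (counts per 1000000 reads on genes). The macrophage markers (6 genes) summed to between 5620 and 8475 CPM in every library, against at most 16.6 CPM for T cell, 3.67 for B cell, 0.242 for NK cell, 1.89 for plasmacytoid dendritic cell, 3.20 for dendritic cell, 79.9 for neutrophil and 36.6 for stromal cell markers. The Mir182 precursor row was at 2.39 and 4.40 CPM in the Mir182mTg libraries and at 0 CPM in both Control libraries. In the loss of function libraries that row held 0 CPM except for 0.0370 CPM in replicate 1 of basal Mir182ΔM/ΔM cells, so it cannot check those labels. Replicate 1 is labelled polyA RNA and replicate 2 total RNA, in every condition, and the precursor ribosomal row Rn45s was at 742 to 1176 CPM in replicate 1 and at 9778 to 21273 CPM in replicate 2. Both WT libraries after RANKL differed from the rest of their experiment in Lyz2, the gene into which LysMcre is inserted: they held 4117 and 4288 CPM, against 22.5 to 44.0 CPM in the other 6. Ifi202b, an interferon-inducible gene listed with Lyz2 to check sample identity, was at no more than 1.12 CPM in those WT RANKL libraries. It was at 82.1 to 152 CPM in the other 6. The gain of function libraries lay on the side of the WT RANKL libraries in both genes, with Lyz2 at 5783 to 7062 CPM and Ifi202b at no more than 0.0908 CPM. The 3 comparisons that need the WT RANKL libraries cannot be had without them, and a difference of origin between them and the rest cannot be told apart from the genotype or the RANKL effect in those 3.

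The 6 genes lie at 4 places of the genome (GRCm38, the build also called mm10). Parp14 (ENSMUSG00000034422.14), which encodes a large mono-ADP-ribosyltransferase with macrodomains, spans chr16:35832874-35871544 on the minus strand with 17 exons in its longest coding transcript. Dtx3l (ENSMUSG00000049502.17) follows on the same strand at chr16:35926511-35939151, 54966 bases away with only 2 annotated pseudogenes between them. Parp9 (ENSMUSG00000022906.15), the macrodomain protein that binds Dtx3l, lies head to head with Dtx3l on the plus strand at chr16:35938470-35972605. Parp9 and Dtx3l share 682 bases, 458 of them exonic in both, and whether the counting used strand is not given in the sources used here, so reads there may have been split between the pair. Parp12 (ENSMUSG00000038507.6), an enzyme with CCCH zinc fingers, is at chr6:39086410-39118349 on the minus strand, and Parp11 (ENSMUSG00000037997.12), an enzyme with a WWE domain, is at chr6:127446840-127494261 on the plus strand. Parp10 (ENSMUSG00000063268.12), a mono-ADP-ribosyltransferase that also binds RNA and ubiquitin, is at chr15:76231174-76243441 on the minus strand and shares 205 exonic bases with Plec on that strand. Mir182 itself is at chr6:30165918-30165992 on the minus strand, so it shares a chromosome with Parp11 and Parp12.

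**Figure D1:**
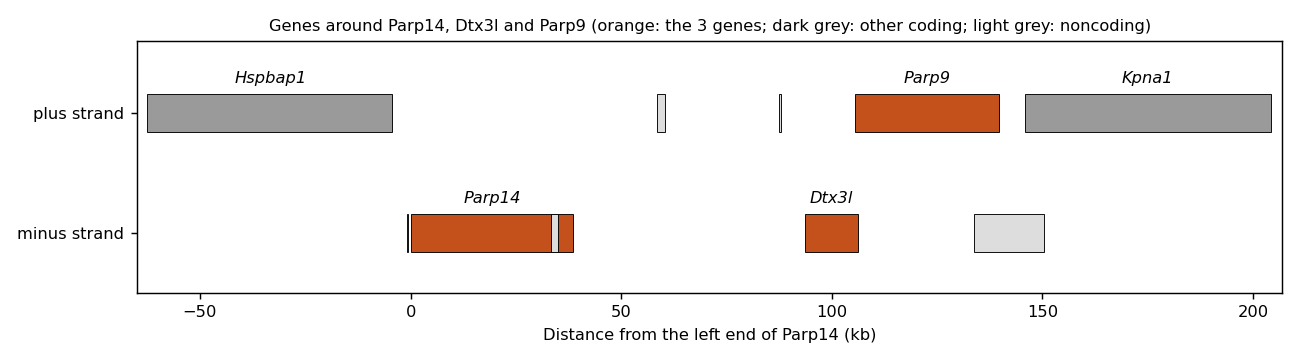
Genes around Parp14, Dtx3l and Parp9 on chromosome 16, with distance in kb from the left end of Parp14 on the x axis and the strand on the y axis. Boxes are annotated gene spans, and the 3 genes described here (orange) cover 139.7 kb from end to end, with Dtx3l and Parp9 overlapping at their starts.

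The mature miR-182 and the promoter of Parp11 are shown because the study altered the former and the interferon element was found in the latter. Both sequences are from RefSeq (GRCm38.p6). The seed of miR-182 (bases 2 to 8) is in capitals. In the Parp11 promoter, on the plus strand, capitals mark the ISRE core (GAAA and GAAA parted by any 2 bases), here as its reverse complement, and the STAT palindrome TTCNNNGAA. The windows of 30 bases shown lie at chr6:127446786-127446815 for the ISRE core and at chr6:127446793-127446822 for the STAT palindrome.
mmu-miR-182-5p: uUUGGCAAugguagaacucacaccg
Parp11 promoter, ISRE core: ttccttttagTTTCGATTTCttggaacccg
Parp11 promoter, STAT palindrome: tagtttcgatTTCTTGGAAcccgtggcatg
Neither 7-base match to the seed (TTGCCAA, or TGCCAAA with a final A) was present in the annotated 3′ UTRs of any of the 6 genes, whereas 18.3% of the 21014 genes with a 3′ UTR held at least 1 of them. The ISRE core was searched on both strands of 300-base promoters around annotated starts and was present in 3.44% of 32851 promoters, and the STAT palindrome in 8.3%. In the Parp11 window the pair overlap and start 44 and 37 bases before the annotated start. The promoters of Parp12 and Dtx3l and a second promoter of Parp11 held neither motif within these windows. Promoters of Parp9, Parp10 and Parp14 were not analysed here.

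Per length, Parp14 was the most abundant of the 6 transcripts in every replicate 1 library, the ones for which RPKM was deposited. In basal WT cells it was at 49.4 RPKM, followed by Parp12 at 30.1 RPKM. Parp9 was at 23.5 RPKM and its partner Dtx3l at 21.3 RPKM. Parp10 at 10.3 RPKM and Parp11 at 8.21 RPKM were the lowest. The same order held in Mir182ΔM/ΔM cells after RANKL, from 108 RPKM for Parp14 and 86.8 RPKM for Parp12 down to 62.2 for Parp9, 42.4 for Dtx3l, 24.3 for Parp10 and 19.9 for Parp11. The Mir182ΔM/ΔM mean after RANKL was the highest of the 6 conditions for all 6 genes, as for 16% of 11776 genes. All 6 genes were well above the counting floor, from 571 reads for Parp11 in its lowest library to 23797 reads for Parp14 in its highest. The values that follow are CPM, which do not correct for gene length and are compared only within a gene.

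Parp14 was at 358 CPM in replicate 1 and 322 CPM in replicate 2 of basal WT cells, and at 257 and 239 CPM after RANKL. In Mir182ΔM/ΔM cells it was at 518 and 487 CPM without RANKL and at 782 and 792 CPM with it. Control cells held 202 and 191 CPM and Mir182mTg cells 178.4 and 178.2 CPM. The Parp14 libraries of the 6 conditions did not overlap. Parp14 was lower after RANKL in WT cells and higher after RANKL in Mir182ΔM/ΔM cells. With 2 libraries a condition, such gaps were frequent. After RANKL, 23.1% of 11673 genes were wholly higher and 48.6% wholly lower in Mir182ΔM/ΔM than in WT libraries. The share of genes without overlap over all 6 conditions is not given here, for Parp14 or for the genes below.

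Dtx3l was at 110 and 91.4 CPM in basal WT cells and at 90.7 and 75.5 CPM after RANKL. Without RANKL, Mir182ΔM/ΔM cells held 147 and 127 CPM, and with it 220 and 202 CPM. Control cells held 69.4 and 58.6 CPM and Mir182mTg cells 63.8 and 54.4 CPM. Replicate 1 was above replicate 2 in all 6 conditions, and only the Control and Mir182mTg libraries overlapped.

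Parp9 was at 83.7 and 72.8 CPM in basal WT cells and at 78.6 and 68.3 CPM after RANKL. In Mir182ΔM/ΔM cells it was at 114 and 107 CPM without RANKL and at 222 and 212 CPM with it. Control cells held 53.3 and 50.3 CPM and Mir182mTg cells 55.0 and 50.5 CPM. The WT libraries with and without RANKL overlapped, as did those of Control and Mir182mTg, while both Mir182ΔM/ΔM conditions lay above all others.

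Parp12 was at 97.2 and 93.7 CPM in basal WT cells and at 85.9 and 88.2 CPM after RANKL. Basal Mir182ΔM/ΔM cells held 140.6 and 141.2 CPM, and those given RANKL 280.2 and 285 CPM. Control cells held 73.4 and 69.7 CPM and Mir182mTg cells 63.0 and 65.3 CPM. None of the 6 conditions overlapped, and the lowest and highest of its 12 values were those of Mir182mTg and of Mir182ΔM/ΔM cells after RANKL.

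Parp11 was at 30.6 and 29.5 CPM in basal WT cells and at 26.3 and 26.4 CPM after RANKL. Mir182ΔM/ΔM cells held 43.7 and 43.6 CPM without RANKL and 74.2 and 71.5 CPM with it. Control cells held 22.5 and 21.6 CPM and Mir182mTg cells 24.5 and 21.3 CPM. Only the Control and Mir182mTg libraries overlapped.

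Parp10 was at 34.9 and 50.2 CPM in basal WT cells and at 36.9 and 52.3 CPM after RANKL. In Mir182ΔM/ΔM cells it was at 49.0 and 63.4 CPM without RANKL and at 82.5 and 108 CPM with it. Control cells held 26.0 and 35.1 CPM and Mir182mTg cells 24.6 and 34.1 CPM. Replicate 2 was above replicate 1 in every condition, and of the 6 conditions only Mir182ΔM/ΔM after RANKL was clear of the rest.

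**Figure D2:**
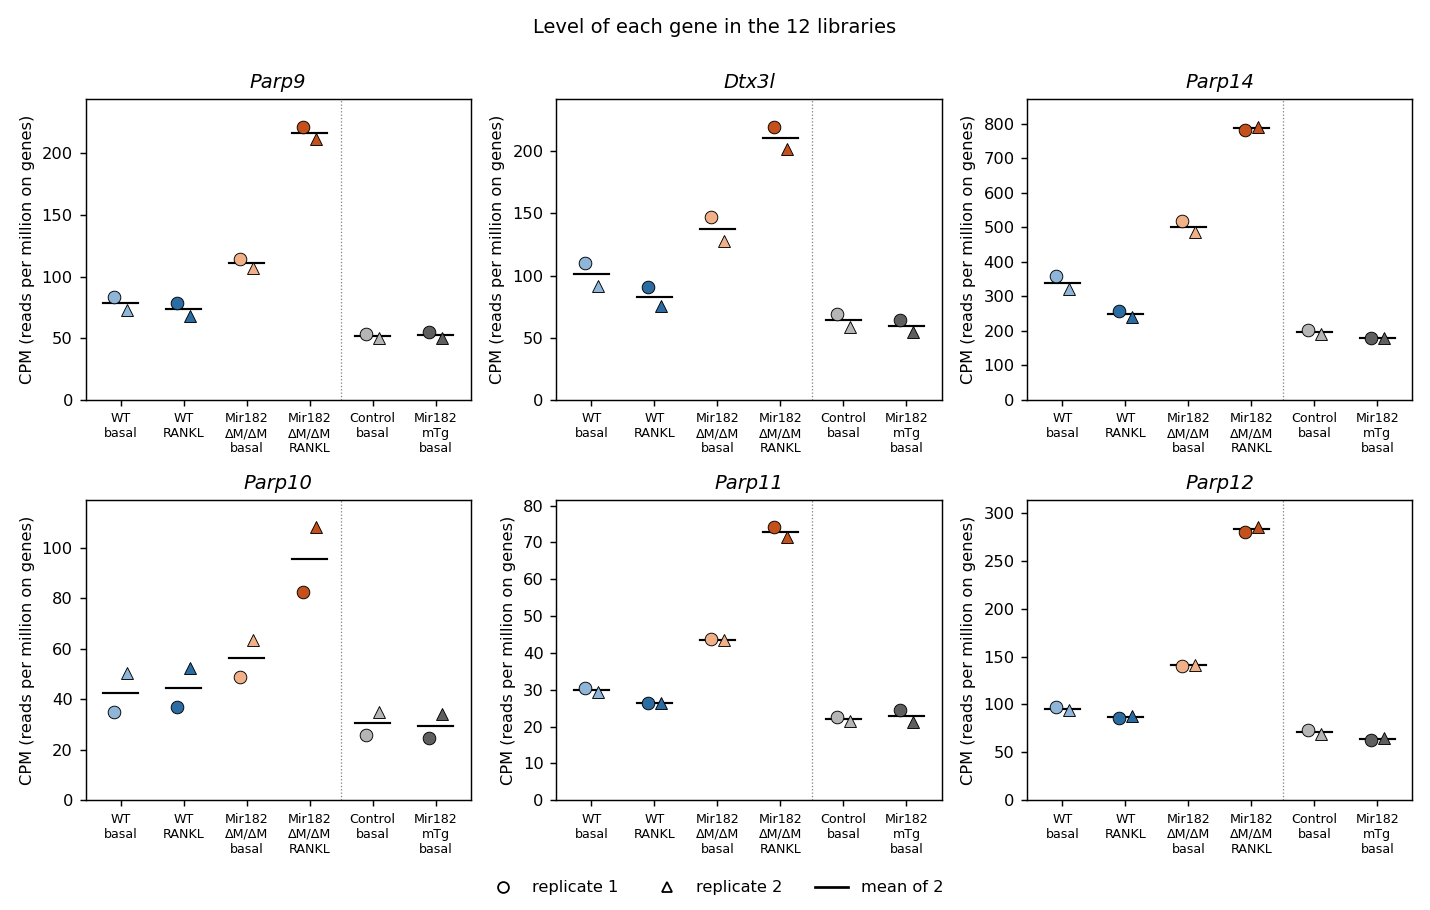
CPM of the 6 genes (y axis, from 0) in the 12 libraries by condition (x axis). Circles are replicate 1, triangles replicate 2, lines the mean of 2 and the dotted line parts the 2 experiments. Mir182ΔM/ΔM cells after RANKL are highest for all 6 genes, from 72.9 CPM on average for Parp11 to 787 CPM for Parp14.

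The ratio of replicate 2 to replicate 1 set Parp10 apart. It was 1.29 to 1.44 for Parp10 over the 6 conditions and 0.828 to 1.04 for the other 5 genes, with Dtx3l at 0.828 to 0.917 and Parp12 at 0.949 to 1.04. Replicate numbers go with the RNA label, the alignment programs and the other programs that the labels name. Which of these moves with Parp10 cannot be told apart. A fit without the replicate as a block counts this steady offset as spread, and the SE of Parp10 in the loss of function fit was 0.24 on the log2 scale against 0.056 for Parp12.

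**Figure D3:**
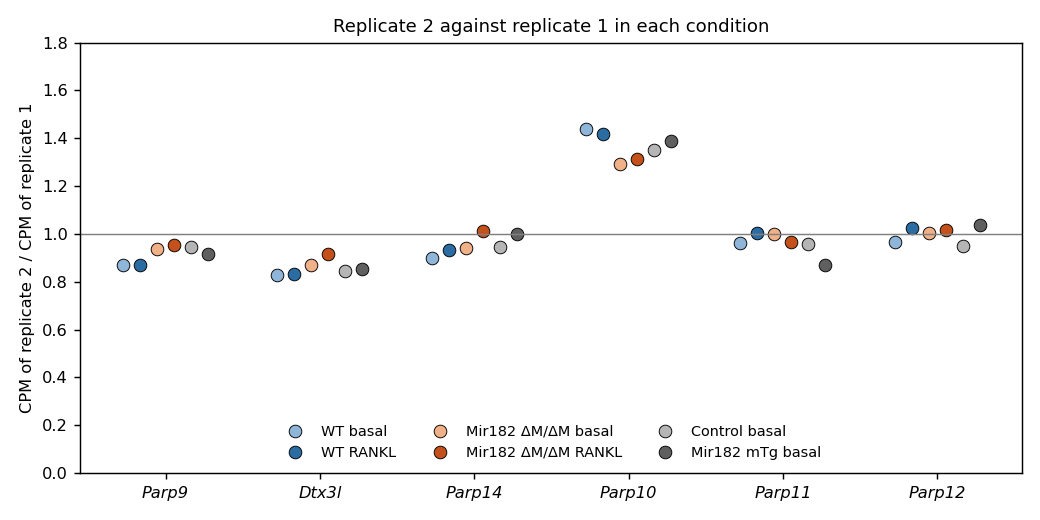
CPM of replicate 2 divided by CPM of replicate 1 (y axis, from 0) for each gene (x axis), with 1 point for each of the 6 conditions. Parp10 lies between 1.29 and 1.44 and the other genes at or under 1.04.

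The first comparison asked how loss of miR-182 changes gene expression in cells on the way to osteoclasts. After RANKL, all 6 genes were higher in Mir182ΔM/ΔM than in WT cells, by 2.14-fold (Parp10) to 3.25-fold (Parp12) in mean CPM. Of the 11673 genes tested with limma, 14.3% were called higher (adjusted p under 0.05) and 23.1% had Mir182ΔM/ΔM libraries wholly above WT, which was the case for all 6 genes. The all-gene median log2 fold change in this contrast was -0.14 in CPM, a shift of -0.14 from the scale set by TMM factors, and with those factors the 6 log2 fold changes ran from 1.24 (Parp10) to 1.84 (Parp12).

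The largest changes were in the antiviral enzyme Parp12, with a log2 fold change of 1.69 ± 0.056 (SE, limma adjusted p = 2.06e-06), and in Parp14, with 1.66 ± 0.075 (limma adjusted p = 7.35e-06). Parp9 rose by 1.55 ± 0.097 (limma adjusted p = 2.67e-05) and its partner Dtx3l by 1.34 ± 0.13 (limma adjusted p = 0.000205). Parp11 rose by 1.43 ± 0.066 (limma adjusted p = 7.90e-06). Parp10 rose least, by 1.09 ± 0.24 (limma adjusted p = 0.00979), and its call was lost without Mir182ΔM/ΔM RANKL replicate 2 (0.89, adjusted p = 0.0627) or without WT RANKL replicate 1 (0.84, adjusted p = 0.0542). In these same libraries 10 of 12 osteoclast genes were lower in Mir182ΔM/ΔM cells, against 30.9% of all genes, Itgb3 was higher and Calcr did not pass, both named after their values were seen. The summed level of the osteoclast genes was 3290 to 3326 CPM in Mir182ΔM/ΔM and 10914 to 11113 CPM in WT cells after RANKL. The part of this difference in cell state in the result was not tested, and in bulk RNA fewer cells of a type and less RNA per cell cannot be told apart.

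Without RANKL the same genotypes differed by less. The comparison after RANKL rests on the WT RANKL libraries, which stood apart in Lyz2 and Ifi202b, and their part in this was not tested. Parp12, Parp14, Parp11 and Parp9 were higher in basal Mir182ΔM/ΔM than in basal WT cells, 4 of the 6 genes against 2.72% of all genes tested. Parp12 rose by 0.56 ± 0.056 on the log2 scale (limma adjusted p = 0.00350), Parp14 by 0.56 ± 0.075 (0.0102), Parp11 by 0.53 ± 0.066 (0.00844) and Parp9 by 0.50 ± 0.097 (0.0400). Dtx3l, at 0.44 ± 0.13 (limma adjusted p = 0.141), and Parp10, at 0.40 ± 0.24 (limma adjusted p = 0.512), did not pass. With the replicate number as a block all 6 passed, against 18.6% of all genes, with limma adjusted p = 2.10e-08 for Dtx3l and 1.67e-06 for Parp10. Both Mir182ΔM/ΔM libraries were above both WT libraries for 5 genes (23.4% of all genes tested) and overlapped for Parp10. The same 4 genes passed without the WT RANKL libraries, with limma adjusted p from 0.0119 (Parp12) to 0.0485 (Parp9). Leaving out 1 basal library at a time kept 1 to 2 calls, and with the libraries of this contrast alone none of the 4 passed (limma adjusted p from 0.0504 for Parp12 to 0.116 for Parp9).

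The response to RANKL was asked within each genotype. In Mir182ΔM/ΔM cells all 6 genes rose after RANKL, against 30.5% of all genes tested, and the 2 sets of libraries were apart for each of them (41.7% of all genes). Parp12 rose by 0.9998 ± 0.056 on the log2 scale (limma adjusted p = 8.26e-06) and Parp9 by 0.96 ± 0.097 (0.000148). Parp10 rose by 0.75 ± 0.24 (0.0328), Parp11 by 0.73 ± 0.066 (8.59e-05), Parp14 by 0.65 ± 0.075 (0.000286) and Dtx3l by 0.62 ± 0.13 (0.00540). Without the WT RANKL libraries all 6 still passed, the weakest being Parp10 (limma adjusted p = 0.0259). Parp10 lost its call without basal Mir182ΔM/ΔM replicate 1 (0.57, adjusted p = 0.159) or without Mir182ΔM/ΔM RANKL replicate 2 (0.56, adjusted p = 0.169).

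In WT cells Parp14 and Parp11 fell after RANKL, 2 of the 6 genes against 22% of all genes tested. Parp14 changed by -0.45 ± 0.075 (limma adjusted p = 0.00148) and Parp11 by -0.18 ± 0.066 (0.0460). Dtx3l was at -0.28 ± 0.13 (0.102), Parp12 at -0.13 ± 0.056 (0.0777), Parp9 at -0.091 ± 0.097 (0.444) and Parp10 at 0.068 ± 0.24 (0.824), none past the threshold. The median gene moved by 0.19 on the log2 scale here in CPM, a shift of 0.19 from TMM scaling. With TMM factors, 5 genes fell (30.6% of all genes), from -0.30 for Parp9 to -0.66 for Parp14, and Parp10 turned from 0.068 to -0.14 without passing (adjusted p = 0.661). With the replicate block in CPM, 5 genes fell, against 28.9% of all genes, and Parp10 did not pass (adjusted p = 0.202). The call of Parp11 was lost when any 1 of the 8 libraries was left out (limma adjusted p from 0.0668 to 0.175), whereas that of Parp14 held throughout.

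**Figure D4:**
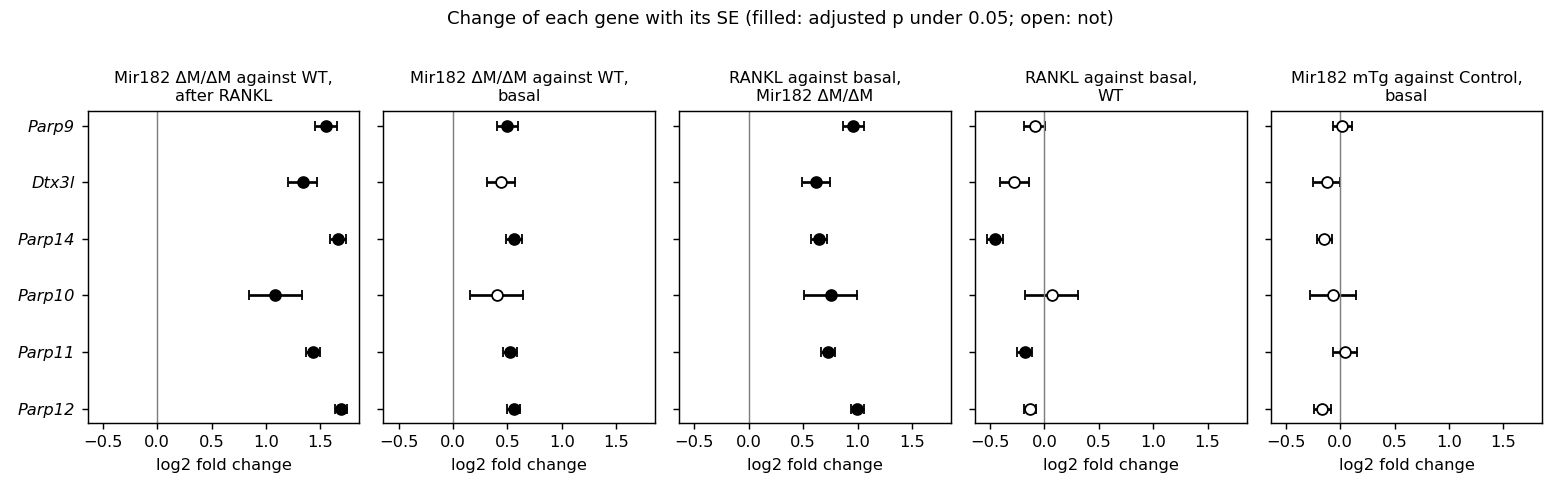
Log2 fold change (x axis) with its SE for each gene (y axis) in the 5 comparisons, from limma for the loss of function and edgeR for the gain of function experiment. Filled points passed an adjusted p of 0.05. All 6 points of Mir182ΔM/ΔM against WT after RANKL lie between 1.09 and 1.69, and all 6 of Mir182mTg against Control lie between -0.17 and 0.045.

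The genotype by RANKL interaction asks whether the response to RANKL differed between genotypes. It was positive for all 6 genes and passed for 5, against 7.46% of all genes tested. The log2 difference of the responses was 1.13 ± 0.080 for Parp12 (limma adjusted p = 0.000144), 1.10 ± 0.11 for Parp14 (0.000449), 1.05 ± 0.14 for Parp9 (0.00177), 0.91 ± 0.094 for Parp11 (0.000601) and 0.89 ± 0.18 for Dtx3l (0.0121). Parp10, at 0.68 ± 0.34, did not pass (limma adjusted p = 0.202), and with the replicate block it did (3.38e-08), when all 6 passed against 16.1% of all genes. Mean levels ran in the order Mir182ΔM/ΔM after RANKL, basal Mir182ΔM/ΔM, basal WT, WT after RANKL for 5 of the 6 genes, an order shown by 3.62% of all genes tested. Parp10 was the exception in CPM, with 42.6 CPM in basal WT and 44.6 CPM in WT cells after RANKL. Its libraries of these conditions overlapped. With TMM factors its log2 fold change between them turned to -0.14, without passing (limma adjusted p = 0.661).

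Overexpression of miR-182 in basal cells gave no call among the 6 genes. With edgeR, 0 of 6 passed and 0 of 6 had an unadjusted p under 0.05, when 0.158% of 12063 genes were called lower, 0.0995% higher and 863 had an unadjusted p under 0.05. DESeq2 and limma also called 0 of 6. The log2 fold changes ran from -0.17 ± 0.078 for Parp12 (edgeR adjusted p = 0.822) and -0.15 ± 0.069 for Parp14 (0.819) over -0.12 ± 0.13 for Dtx3l to 0.045 ± 0.11 for Parp11. With the replicate block Parp14 (-0.15, edgeR adjusted p = 0.00438) and Parp12 (-0.17, 0.0119) passed as lower, against 8.24% of all genes. Of the 6, these were also the only genes whose Mir182mTg libraries lay wholly below Control (14.1% of all genes tested). Between the experiments no test was made, since the deposited units differ and Lyz2 and Ifi202b also separate the gain of function libraries from 6 of the 8 loss of function libraries. Both gain of function means lay below all 4 loss of function means for all 6 genes, as for 9.91% of 11776 genes that reached 1 CPM in 2 or more of the 12 libraries.

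Dtx3l and Parp9 encode the subunits of 1 complex and share a start region, and the number of Dtx3l reads per Parp9 read differed between conditions. It was 1.32 and 1.26 in basal WT and 1.28 and 1.19 in basal Mir182ΔM/ΔM cells, replicate 1 first. After RANKL it was 1.15 and 1.11 in WT and 0.991 and 0.952 in Mir182ΔM/ΔM cells. In the gain of function experiment it was 1.30 and 1.17 in Control and 1.16 and 1.08 in Mir182mTg cells. The Mir182ΔM/ΔM libraries after RANKL held the lowest ratios and did not overlap with any other condition. The difference was not tested, and it goes with the smaller fold change of Dtx3l than of Parp9 in the genotype comparison after RANKL.

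The other PARP family genes served as the comparison within the family. Of 11 tested after RANKL, 2 were higher, 3 lower and 6 did not pass in Mir182ΔM/ΔM against WT cells, when 14.3% of all genes were higher and 30.9% lower. They had a median log2 fold change of -0.13, against 1.49 for the 6 genes. With TMM factors the counts were 3 higher and 3 lower and the median was 0.026. Zc3hav1, which encodes the zinc-finger antiviral protein and is itself an interferon-stimulated gene, rose by 0.63 ± 0.067 (limma adjusted p = 0.000311), from 135 and 132 CPM in WT to 199 and 215 CPM in Mir182ΔM/ΔM cells after RANKL. The DNA-repair enzyme Parp1 was at -0.038 ± 0.062 (0.645) and Tiparp, a target of the aryl hydrocarbon receptor, at -0.13 ± 0.071 (0.195). The tankyrase Tnks2 fell by 0.46 on the log2 scale (0.000489). Parp3, Parp8 and Parp16, chosen after their values were seen, changed by 0.30, -0.52 and -0.68 (limma adjusted p = 0.00839, 0.00349 and 0.0166), and the call of Parp16 was lost with quantile normalization (-0.42, 0.0819). In the basal genotype comparison limma called 0 of the 11, with 3 at an unadjusted p under 0.05, edgeR and DESeq2 on recovered reads also called 0, and limma with the replicate block called 3 higher and 3 lower (18.6% and 12.7% of all genes).

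**Figure D5:**
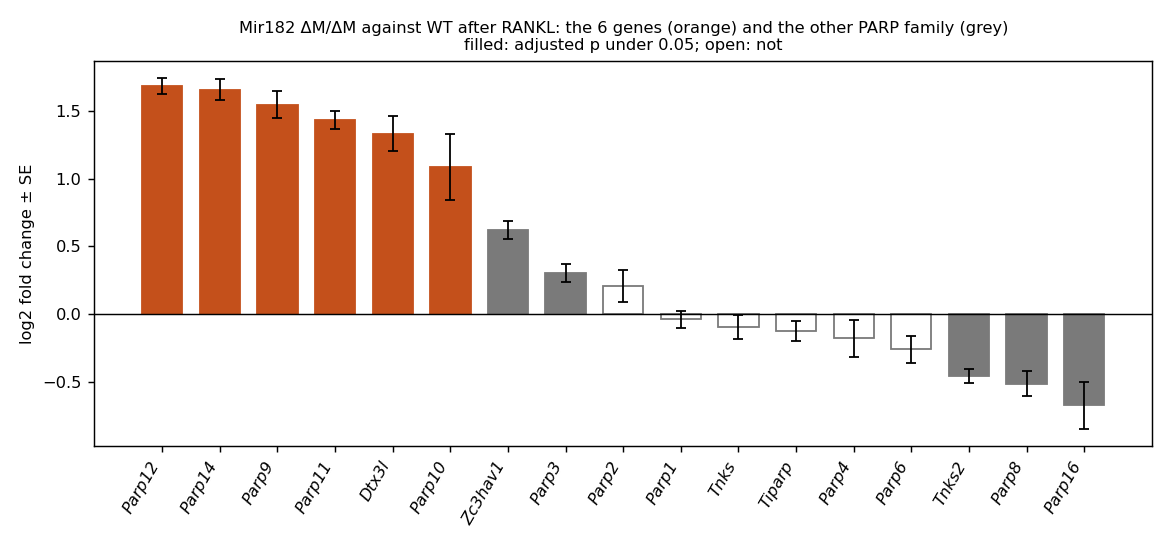
Log2 fold change with SE (y axis) of Mir182ΔM/ΔM against WT cells after RANKL for the 6 genes (orange) and 11 other PARP family genes (grey). Filled bars passed an adjusted p of 0.05. The lowest of the 6 genes, Parp10 at 1.09, lies above the highest of the others, Zc3hav1 at 0.63.

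In Mir182ΔM/ΔM against WT cells after RANKL, the relatives of Dtx3l were lower, and most genes for the enzymes that take ADP-ribose off did not pass. Within each genotype, Dtx4 and Dtx2 rose after RANKL and Dtx3 fell. Of the Deltex ligases, 3 were tested and all 3 were lower in Mir182ΔM/ΔM than in WT cells after RANKL, under CPM, TMM and quantile scaling: Dtx4 by -2.31 ± 0.080 (limma adjusted p = 2.28e-06), Dtx3 by -2.03 ± 0.14 (4.61e-05) and Dtx2 by -0.80 ± 0.094 (0.000502). Of 6 ADP-ribose removal genes tested, 2 were lower and 4 did not pass, when 30.9% of all genes were lower. Parg, the glycohydrolase that cuts ADP-ribose chains, was at -0.33 (limma adjusted p = 0.0402), and Adprh at -0.31 (0.0941), Oard1 at -0.050 (0.735) and Adprhl2 at 0.00061 (0.998) did not pass. With TMM factors only Macrod1, named after its values were seen (-0.69 in CPM, 0.00220), passed in this list.

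The ligand itself was scarcely read. Ifnb1 was at 0 CPM in all 4 WT libraries, at 0.0370 and 0.0746 CPM in basal Mir182ΔM/ΔM cells and at 0.0985 and 0.197 CPM in Mir182ΔM/ΔM cells after RANKL, and only the last lay above the value of 3 reads. It was too low to be tested. Of the 12 genes for interferon receptors and signaling that were tested, after RANKL 7 were higher (14.3% of all genes) and 1 lower (30.9%) in Mir182ΔM/ΔM against WT cells. The receptor chain Ifnar1 rose by 0.23 (limma adjusted p = 0.0155) and Irf7, a master regulator of interferon genes, by 4.74 (7.96e-08), while the receptor kinase Jak1 was at -0.23 (0.0287) and not called with TMM factors. Irf7 was at 47.6 and 49.7 CPM in WT and at 1297 and 1355 CPM in Mir182ΔM/ΔM cells after RANKL. In the basal comparison 3 of these 12 were higher and 1 lower (2.72% and 1.11% of all genes), with Irf7 at 1.38 (limma adjusted p = 9.53e-05).

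From this RNA-seq the study had already reported type I interferon response genes as raised in Mir182ΔM/ΔM cells after RANKL. The interferon-stimulated genes listed here, outside the PARP family, are thus no independent result. They differed in the same direction as the 6 genes, with a larger median. After RANKL all 24 were higher in Mir182ΔM/ΔM than in WT cells, against 14.3% of all genes, and they had a median log2 fold change of 3.54 against 1.49 for the 6 genes and -0.14 for all genes tested. In the basal comparison 20 of 24 were higher and Ifi44, named after its values were seen, was lower (2.72% and 1.11% of all genes), with a median of 1.21 against 0.51 for the 6 genes and 0.011 for all genes. Of the most abundant, Oasl2 rose by 3.78 ± 0.11 after RANKL (limma adjusted p = 1.33e-06), Oas3 by 3.65 ± 0.056 (1.21e-07), the RNA sensor gene Ddx58 by 1.90 ± 0.11 (2.00e-05) and the ubiquitin ligase gene Trim25 by 0.93 ± 0.074 (7.87e-05). Eif2ak2, which encodes the kinase PKR, rose by 1.55 ± 0.0998 (3.01e-05), within the range of the 6 genes. It was at 90.0 and 80.5 CPM in WT and at 255 and 246 CPM in Mir182ΔM/ΔM cells after RANKL. In Mir182mTg against Control cells edgeR called 1 of these 24 lower (0.158% of all genes), which was Zbp1, named after its values were seen, and edgeR with the replicate block called 18 lower (8.24% of all genes). An unadjusted edgeR p under 0.05 was found for 17 of the 24, against 863 of all 12063 genes.

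The genes whose profile over the 12 libraries was most like the mean profile of the 6, as Pearson's r of centred log2(CPM + 1), were Ifit1bl1 (0.996), Ifit1 (0.995), Iigp1 (0.995), Ifit3 (0.994) and Cmpk2 (0.994) of 11770 genes compared. All are known interferon-stimulated genes. These values rest on 12 libraries in only 6 conditions that share batches and are given without a test. Against the mean of the other 5, Parp12 reached r = 0.992, Parp9 0.989, Parp11 0.988, Parp14 0.983, Dtx3l 0.972 and Parp10 0.889. Of the 11770 genes outside the 6, some reached a higher r with the same mean. These numbered 5 for Parp12, 9 for Parp9, 11 for Parp11, 22 for Parp14, 43 for Dtx3l and 155 for Parp10. Parp10 was the least like the rest of the 6, and its replicate offset ran opposite to that of Dtx3l.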

How the data were processed

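RNA-seq of BMMs was analysed in 12 libraries, grouped by their labels into 6 conditions of 2 replicates. Poly-A+ selection with a TruSeq RNA kit is the preparation described in the methods, which do not set the replicates apart there. The labels give polyA RNA for replicate 1 but total RNA for replicate 2, and which is right for replicate 2 is not known. By the methods and labels, alignment to mm10 was with TopHat (replicate 1) or HISAT2 (replicate 2), and HTSeq counted the reads per gene. The authors deposited CPM, computed with edgeR, for the loss of function libraries. For the gain of function libraries the authors deposited raw read counts per gene, which were scaled to CPM here. RPKM deposited for replicate 1 were used only to rank genes by level. In the loss of function files, 4 or 27 rows a file had gene names turned into dates or repeated. Genes affected in any file were left out of all, and 24394 were kept. Dividing each CPM by the value of 1 read gave whole reads (within 0.02) for 100% of values.

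Loss of function values were tested with limma (version 3.58.1, trend) on log2(CPM + 1), in 1 fit of 4 groups, after dropping genes that did not reach 1 CPM in 2 or more of 8 libraries (11673 kept). Fold changes are on that scale and understate changes of low genes. The quasi-likelihood test of edgeR (version 4.0.16, with TMM factors and filterByExpr) was used for the counts of 12063 genes. P-values were adjusted by Benjamini-Hochberg over all genes of a contrast, with a threshold of 0.05, and all p-values are two-sided. The design foresaw these tests, and the replicate block, TMM and quantile scaling, other filters and pseudocounts, edgeR and DESeq2 (version 1.42.0) on recovered reads, the libraries of a contrast alone and each library left out were alternatives. Leaving out both WT RANKL libraries was added after seeing the data. A fit that leaves 1 library in a group assumes that it varies like the others.

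The replicate numbers mark shared processing, given by the labels, and the log2 ratios of replicate 2 to replicate 1 correlated at 0.690 to 0.754 between the 4 loss of function conditions (11776 genes) and at 0.745 between the 2 gain of function conditions. The methods call the replicates biological. Both tests were tried on simulated counts without a shared replicate offset, so that trial does not cover this feature of the data. The 6 genes and all lists were chosen with earlier results of these data known, and genes named from lists are the most abundant tested ones (at most 4 a list) plus Eif2ak2, Ifnb1, Irf7, Zc3hav1, Tiparp and genes that check sample identity, with others marked where named. One gene that this rule names is not reported here. Gene models are GENCODE vM21. Depth is given as reads counted on genes, and the floor of 3 reads covers counting error only.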

Additional observations from a re-analysis of the deposited data

Results flagged for a closer look

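The response to RANKL differed between Mir182ΔM/ΔM and WT cells by the interaction test of limma for 5 of the 6 genes, against 7.46% of all genes tested. The log2 difference of the responses was 1.13 for Parp12, 1.10 for Parp14, 1.05 for Parp9, 0.908 for Parp11 and 0.894 for Dtx3l. Each response was positive in both Mir182ΔM/ΔM replicates and negative in both WT replicates for these 5 genes, in CPM. The share of all genes with these signs is not given here. In WT cells the fall passed for Parp14 and Parp11 only. It did not pass for Parp12, Dtx3l and Parp9 (limma adjusted p = 0.0777, 0.102 and 0.444), and the WT libraries of Parp9 overlapped. The interaction contrast includes both WT RANKL libraries, whose Lyz2 and Ifi202b levels stand apart, and their part in the differences was not tested.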

How the results depend on the processing

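Among the alternatives, 533 values of single genes kept their direction and their side of the threshold, 27 passed where the main value had not, 32 no longer passed and 14 changed sign, while 184 counts stayed within 1.5 times and 20 moved. For RANKL against basal in WT cells, 22% of all genes were called lower in the main fit. That share was 30.6% with TMM factors, 28.9% with the replicate block and 29.3% with edgeR, and is not given for other settings. Of the 6 genes, those called lower there went from 2 to 5 with TMM factors, quantile normalization and the replicate block. They were also 5 with edgeR and DESeq2 on recovered reads, and 6 with edgeR and the replicate block. With the libraries of the contrast alone 1 was called, and calls also changed with libraries left out. Parp10 turned there from 0.068 to -0.14 with TMM factors, -0.13 with quantile normalization, -0.14 with edgeR, -0.14 with edgeR and the replicate block, and -0.12 with DESeq2, and ranged from -0.19 to 0.32 with 1 library left out, when Parp9 ranged from -0.19 to 0.0093. The basal genotype count of 4 fell to 0 with the libraries of the contrast alone, where fewer libraries set the spread, and ranged from 1 to 4 with each library left out. For Mir182mTg against Control the genes called lower went from 0 to 2 with the replicate block, and with 1 library left out Parp10 ranged from -0.32 to 0.16, Parp9 from -0.051 to 0.080 and Parp11 from -0.065 to 0.14. The calls of all 6 genes after RANKL between genotypes held in each alternative other than Parp10 in 2 of the 8 fits with a library left out. The replicate block, under which the numbers pair the samples, changed no call of the 6 genes other than those given in the report. With 2 libraries a group, precision rests on the spread shared across groups.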
